A study of Mus musculus with 12 samples.

Results

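The step from embryonic gut epithelium of the E14.5 embryo (E for embryonic day) to adult intestinal stem cells was described through H3K27me3, using 4 of the 12 samples of the series. H3K27me3, trimethylated lysine 27 of histone H3, is written by the Polycomb complex PRC2 and lies over genes that are held silent. It often forms broad domains over developmental regulators such as the Hox genes, where PRC1 binds the mark and compacts the chromatin. In females it also coats the inactive X chromosome. The E14.5 epithelium is a sheet of dividing progenitors, whereas adult Lgr5+ stem cells sit at the crypt base and renew the villus throughout life.

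The members were the 2 E14.5 and the 2 stem cell libraries with a deposited list of enriched islands, out of 8 such libraries and 4 inputs. Per the labels, all mice were of mixed C57BL/6 and CD1 strain. E14.5 cells were EpCAM-positive, CD31-negative, CD45-negative and DAPI-negative cells of the small intestine, pooled or single embryos and their sex not being stated. The stem cells (ISC) were sorted for high Lgr5-EGFP from Lgr5EGFP-Cre-ERT males at postnatal day 60. The enterocytes (AE) came from males of the same age and line, sorted as EpCAM-positive, CD31-negative, CD45-negative and DAPI-negative cells. That reporter allele is labelled for the adults, and the embryos' genotype is not given. The lists of E12.5 epithelium and of AE, with 2 libraries each, took no part in choosing regions and were used to see what those regions did elsewhere. The labelled cell types could not be checked against markers, because the lists hold positions without gene names and no mm9 annotation was used here.

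Each list gives chromosome, start, end, ChIP reads and control reads of islands on the mm9 build, all on a grid of 200 bp windows. A window was called gained when both ISC libraries and neither E14.5 library covered it, lost in the reverse case, and kept when all 4 covered it. The E14.5 lists covered 75.9 and 109 Mb in 8185 and 9940 islands. The ISC lists covered 241 and 60.8 Mb in 17407 and 6668 islands. Mean covered length was 92.5 ± 23.5 Mb (SD, n = 2) at E14.5 and 151 ± 128 Mb (SD, n = 2) in ISC, with an exact two-sided permutation p of 1. The groups overlap completely, and with 2 libraries against 2 no p below 0.333 can be had, so gains and losses are given as lengths with no test. ChIP reads inside islands numbered 3020599 and 2999884 at E14.5 and 6627853 and 1493464 in ISC. Reads are listed only inside islands, so total depth is unknown and a window outside the islands was not called, which is not the same as unmarked.

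Of 301 Mb called in any of the 4 libraries, 24.5 Mb were kept (8.12% of the windows), 18.0 Mb were gained (5.97%) and 12.48 Mb were lost (4.14%). The kept length came in 3252 stretches with a median of 5.6 kb, the gained length in 3933 stretches with a median of 4.2 kb, and the lost length in 3360 stretches with a median of 2.8 kb. Long stretches were mostly kept: 162 kept stretches reached 20 kb, against 23 gained and 26 lost.

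The long list of ISC replicate 1 set much of this picture. It alone called 147 Mb, 48.7% of all length called, where the other lists called 25.4 Mb alone (E14.5 replicate 2), 11.2 Mb (E14.5 replicate 1) and 8.65 Mb (ISC replicate 2). A further 19.1 Mb were called in both E14.5 libraries and ISC replicate 1 but not in ISC replicate 2, against 1.04 Mb in both E14.5 libraries and ISC replicate 2 only. Windows that no other library called lay in the weaker islands of ISC replicate 1. The ratio of ChIP to control reads there was 1.104 (median weighted by length), the 41.2 percentile of that list's islands. For gained windows it was 1.31 (73.4 percentile), and for kept windows 1.74 (93.2 percentile). In ISC replicate 2 the gained windows lay in islands with a ratio of 0.994 (38.1 percentile), below that list's median of 1.04, and the kept windows in islands of 1.15 (72.2 percentile). Gains were thus held by stronger than typical islands in ISC replicate 1 and by weaker than typical islands in ISC replicate 2. Lost windows had ratios of 1.51 and 1.103 in the E14.5 lists, the 55.2 and 65.8 percentiles. Such ratios are not scaled for library size and are compared only within a list.

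**Figure D1:**
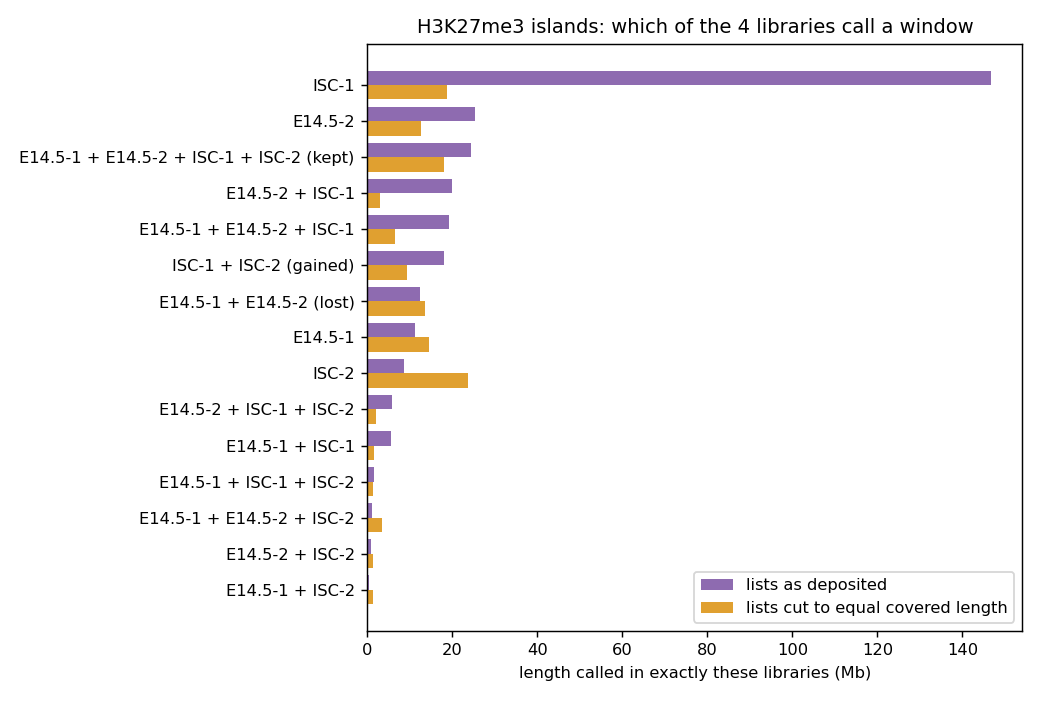
Length (Mb, horizontal axis) called in exactly the named libraries among the 4 compared, for the lists as deposited (purple) and cut to equal covered length (orange); E14.5-1 is E14.5 replicate 1, and so on. The bar for ISC replicate 1 alone reaches 147 Mb as deposited and 18.8 Mb after the cut.

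To remove the difference in length, each list was cut to 60.8 Mb, the length of the shortest, by taking islands in falling order of ChIP to control read ratio. Then 18.1 Mb were kept (13.8% of windows called in any of the cut lists), 9.26 Mb were gained (7.04%) and 13.7 Mb were lost (10.4%). The order of gain and loss turned round: gains were 1.44 times losses as deposited, and losses were 1.47 times gains at equal length. Between any single E14.5 list and any single ISC list of equal length, the length called only in the first equals that called only in the second. Loss and gain need a call in both replicates of an age. The replicates shared 41.7 Mb at E14.5 (Jaccard index, shared over total length, 0.523) and 30.9 Mb in ISC (0.341). More E14.5 than ISC length could thus enter a class, and what sets the excess of loss was not tested. Taken as a share of what both replicates called, 32.7% of the E14.5 length was lost and 30.0% of the ISC length was gained. As deposited these shares were 21.9% and 36.1%. The kept share was 42.8% of the E14.5 length as deposited and 43.5% at equal length, and 49.1% and 58.7% of the ISC length.

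Held both ways were 7.06 Mb of gain, which is 39.2% of the gain as deposited and 76.2% of that at equal length, and 7.87 Mb of loss, which is 63.0% and 57.6%. The cut lists are subsets of the deposited ones, so a window cannot pass from gained to lost between them, and all 18.1 Mb kept at equal length had to be kept as deposited. When only ISC replicate 1 was shortened, the loss grew from 12.48 Mb with the full list to 16.2 Mb at 150 Mb and 19.6 Mb at 100 Mb, and the gain fell from 18.0 to 14.7 and 11.1 Mb. With all 4 lists cut alike, loss stayed above gain at each length tried, for example 4.13 against 2.40 Mb at 20 Mb and 8.88 against 5.58 Mb at 40 Mb.

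**Figure D2:**
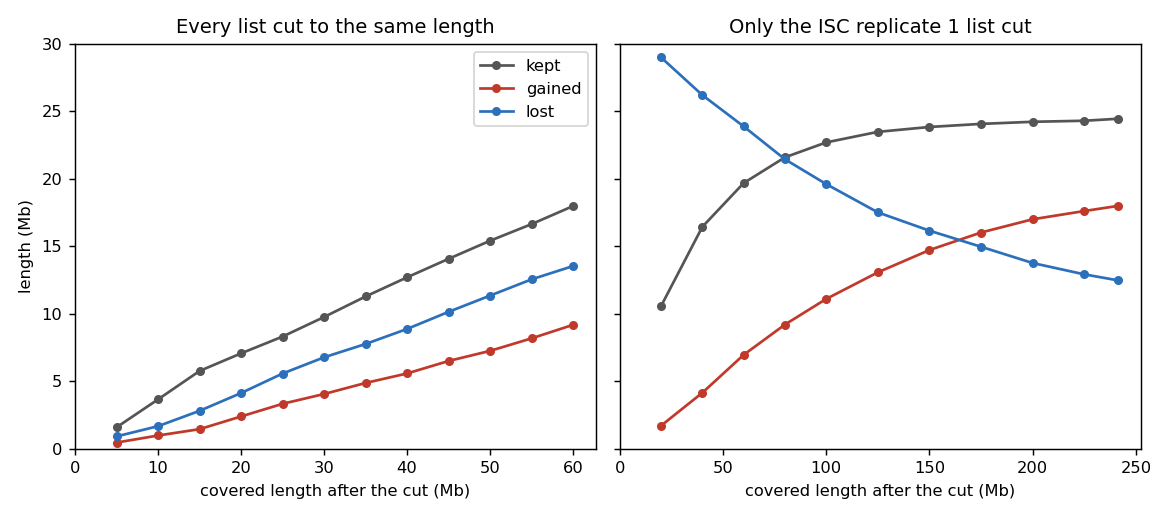
Length kept, gained and lost (Mb, vertical axis) after cutting all 4 lists to the same covered length (left) or only ISC replicate 1 (right), against the covered length after the cut (Mb, horizontal axis). On the left loss lies above gain throughout, and on the right the lines of gain and loss cross above 150 Mb.

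The kept windows lay in stronger islands than the gained or lost windows in all 4 lists. The 8 longest that held both ways were 104 kb (chr15:102775601-102879600), 83.0 kb (chr2:74480201-74563200), 83.0 kb (chr11:96107001-96190000), 77.2 kb (chr6:52152001-52229200), 66.2 kb (chr4:115589601-115655800), 61.2 kb (chr19:43638001-43699200), 56.4 kb (chr9:91244801-91301200) and 51.4 kb (chr11:96019401-96070800). As background, the mouse HoxC, HoxD, HoxB and HoxA clusters, which pattern the body axis and are standard Polycomb targets, lie on chromosomes 15, 2, 11 and 6. Whether these stretches lie inside them was not checked here.

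On chromosome 15 the islands over the stretch held 15363 ChIP and 4285 control reads in E14.5 replicate 1, 13511 and 4405 in replicate 2, 17605 and 5571 in ISC replicate 1, and 4397 and 2628 in replicate 2. Relative to the median island of its own list, the ratio was 2.46 and 3.22 times at E14.5 and 2.76 and 1.61 times in ISC. ISC replicate 2 was the lowest of the 4 there, and its ratios spread least overall: its 90th percentile was 1.29 times its median, against 1.39 in ISC replicate 1 and 1.59 and 1.76 at E14.5. The chromosome 9 stretch ranked among the top islands at both ages. Its ratio was 3.02 and 3.78 times the list median at E14.5 and 3.03 and 1.67 times in ISC, with 6193, 5122, 3666 and 1730 ChIP reads in that order. The 8 stretches were covered in E12.5 and AE as well, by 79.2% or more in each of those 4 libraries.

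Over the 681 kept stretches of 10 kb or more (median 14.4 kb), the islands were 23.2 and 27.6 kb long at E14.5 (medians) and 39.6 and 16.8 kb in ISC. Thus the ISC replicates lay on either side of the E14.5 libraries, and no common widening or narrowing was seen. The order of the ratios over these stretches was shared between ages nearly as well as between the ISC replicates. Spearman's rho was 0.892 between the E14.5 replicates, 0.731 between the ISC replicates, and 0.700 to 0.732 for the 4 pairs across ages. These are descriptions over 681 stretches, some of which share an island, and replicates share a control.

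Within this set many stretches differed in rank between the ages, and few did so by a wide margin. Both ISC libraries ranked above both E14.5 libraries in 168 stretches (24.7%) and below them in 166 (24.4%), and by at least 25 percentile points in 25 (3.67%) and 9 (1.32%). The examples that follow were picked after their values were seen. The largest rise was on chr6:52113001-52131400 (18.4 kb), just before the 77.2 kb kept domain of that chromosome. At E14.5 it lay in islands of its own, 21.0 and 18.8 kb long, with 816 ChIP over 577 control reads and 631 over 525, the 8.30 and 14.6 percentiles of the set. In ISC it was part of islands of 188 and 141 kb that ran on into the kept domain, with 14815 over 4059 and 4959 over 3039 reads, the 99.0 and 93.9 percentiles. An island has a single ratio over its full length, so the ISC values are those of the joined islands, and the ratio over the stretch alone is not given by the lists. The joining itself was seen in the coverage: the 12.6 kb after the stretch (52131401 to 52144000) were covered by 60.3% and 52.4% at E14.5, by 100% in both ISC libraries and both AE libraries, and by 0% in both E12.5 libraries.

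The next rise, on chr7:72665801-72679400, rested on islands of more similar length, 15.6 and 16.6 kb at E14.5 and 32.6 and 23.0 kb in ISC. It went from the 4.77 and 7.56 percentiles to the 70.0 and 77.9 percentiles, with ratios of 1.27 and 1.04 at E14.5 and 2.25 and 1.41 in ISC. The ratios are not scaled for library size, so the rise is one of percentiles only. The largest fall was on chr6:101071001-101088200, from the 68.5 and 70.0 percentiles to the 29.3 and 13.7 percentiles. Its islands held 1461 over 559 and 1183 over 559 reads at E14.5 and 924 over 555 and 368 over 379 in ISC. The islands of both E14.5 libraries and ISC replicate 1 were equally long, at 27.6 kb, and that of ISC replicate 2 was 17.2 kb.

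Gained regions were mostly not called at E12.5, and the long ones were mostly called in enterocytes. Both AE libraries called 28.4% of the gain as deposited, and 14% of all length called in any of the 4. Neither E12.5 library called 87.5% of the gain, against 76.6% of all length. At equal covered length, with the E12.5 and AE lists cut alike, the shares were 37.6% in both AE libraries (19.8% of all length) and 83.3% in neither E12.5 library (63.8%). Of the 130 gained stretches of 10 kb or more that held both ways, 85 (65.4%) were covered over 50% or more of their length in both AE libraries and 1 was untouched in AE. Of these 130, 93 (71.5%) were untouched in E12.5 and 1 was mostly covered in both E12.5 libraries. For comparison, 1437 stretches of that size were called in the same libraries, whichever these were, in both the deposited and the cut lists. Among them 52.1% were mostly covered in both AE libraries, 19% were untouched in AE, 38.6% were mostly covered in both E12.5 libraries and 32.9% were untouched in E12.5. The 594 long kept stretches belong to this set and weigh heavily on its shares. Of them, 555 (93.4%) were mostly covered in both AE libraries and 490 (82.5%) in both E12.5 libraries. In the whole set these counts were 748 and 555. Neither E12.5 nor AE called 6.70 Mb of the gain (37.2%), a lower share than the 56.4% of all length called in any of the 4.

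Among gains held both ways, the one that extended farthest spanned 70.0 kb (chr5:125744801-125814800), 76.6 kb from the nearest E14.5 island. Neither E14.5 library called any part of it. The ISC islands held 4778 ChIP over 2301 control reads and 1901 over 1639, ratios of 1.81 and 1.12 times the median of their lists. AE covered 100% and 97.7% of it, and E12.5 covered 11.4% and 10.3%.

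The strongest of the 8 longest gains was the third, 32.6 kb (chr2:17945201-17977800). No E14.5 or E12.5 library called it, and the nearest E14.5 island was 289 kb away. Its ISC islands were nearly the same in extent, 32.8 and 33.0 kb, with 1932 over 612 and 1007 over 615 reads. The ratios were 2.76 and 1.58 times the list medians, at the 99.8 and 98.6 percentiles. AE covered 95.7% and 73.0%.

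The second, 41.2 kb (chr7:52908401-52949600), had ISC ratios of 2.00 and 1.06 times the list medians, and its nearest E14.5 island lay 3.2 kb off. Gains of 27.6 kb each (chr8:12021601-12049200 and chr8:12684401-12712000) had ratios of 1.51 and 1.01, and 1.39 and 0.984 times the list medians, so ISC replicate 2 was near its typical island in both. Chromosome 9 held another pair within 173 kb, 27 kb (chr9:42739001-42766000) and 26 kb (chr9:42593201-42619200), with ratios of 1.38 and 1.13, and 1.801 and 1.09 times the list medians. The nearest E14.5 islands were 198 and 345 kb away, and no E12.5 library called either stretch.

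A stretch of 26.4 kb (chr11:95845401-95871800) adjoined an E14.5 island. Its ISC islands had 2608 over 937 and 1062 over 689 reads, 2.43 and 1.48 times the list medians and at the 99.5 and 97.1 percentiles. It lies 148 kb before the 51.4 kb kept domain of chromosome 11. AE covered 82.6% or more of 7 of the 8 gains in each library, the exception being the 73.0% above.

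Lost regions were called in part at E12.5 and seldom in enterocytes. Of the loss as deposited, 85.9% carried no call in AE, against 67.1% of all length called in any of the 4, and 2.52% was called in both AE libraries, against 14%. At equal covered length 80.6% carried no call in AE (59.9% of all length). E12.5 replicate 2 called 45.1% of the lost length and replicate 1 18.0%, so these replicates differ widely, and 13.3% was called in both (7.22% of all length). Of the 112 lost stretches of 10 kb or more that held both ways, 82 (73.2%) were untouched in AE, against 19% of all such stretches. In E12.5, 37 (33.0%) were mostly covered in both libraries, and 12 (10.7%) were untouched. Over all such stretches these shares were 38.6% and 32.9%. Kept stretches made up 490 of the 555 behind the 38.6%, so it is not a share of changed stretches. They also lower the untouched shares, as 0 of the 594 kept stretches were untouched in AE and 1 in E12.5. Over all loss, 5.49 Mb (44.0%) was called in neither of these populations, against 56.4% of all length. At equal covered length these shares were 34.2% and 44.1%.

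**Figure D3:**
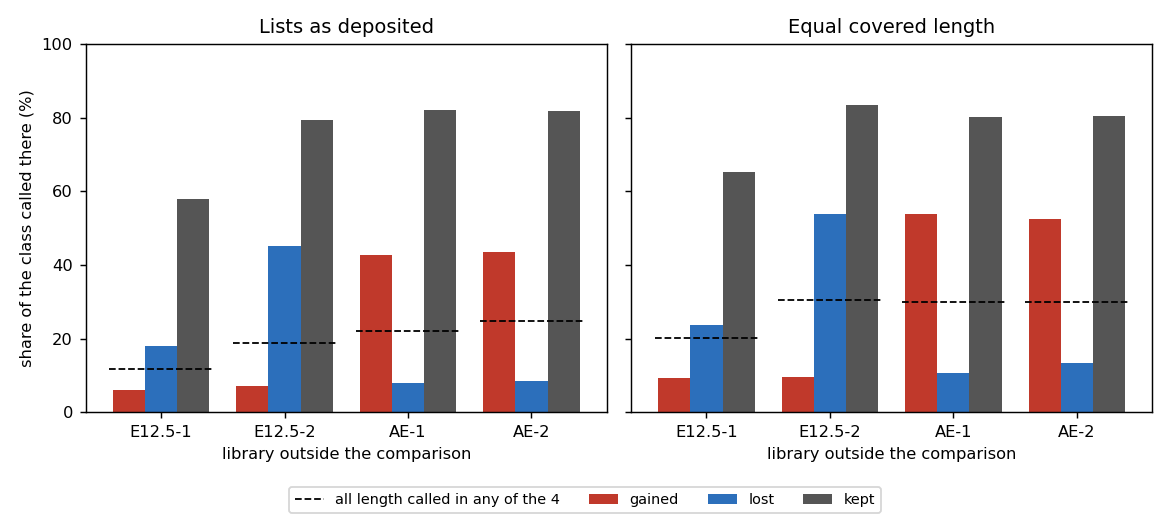
Share of the gained, lost and kept length (%, vertical axis) that was called in each library outside the comparison, for the lists as deposited (left) and at equal covered length (right); dashed lines give the same share for all length called in any of the 4 libraries. In both AE libraries gained length lies above the dashed line and lost length below it, and in both E12.5 libraries the reverse.

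Among losses held both ways, the one that extended farthest spanned 48.2 kb (chr2:26370601-26418800). Its E14.5 islands held 2732 over 1827 and 2551 over 2539 reads, ratios of only 1.03 and 1.05 times the list medians, and it adjoined an ISC island. The second was 41.0 kb (chr8:108249401-108290400), 29.6 kb from the nearest ISC island. Here both E14.5 islands spanned 41.6 kb, with 1692 over 885 and 1380 over 888 reads, 1.31 and 1.63 times the list medians. E12.5 covered 66.8% and 79.5% of it, and no ISC or AE library called any of it.

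Further losses were chr8:112564801-112602600 (37.8 kb) and chr1:122839401-122877000 (37.6 kb). Their E14.5 ratios were 1.62 and 1.48, and 1.63 and 1.505 times the list medians. E12.5 replicate 2 covered 98.9% and 100% of them and replicate 1 77.8% and 88.8%. The chromosome 1 loss was 188 kb from any ISC island.

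The losses with the highest E14.5 ratios were those of chr3:14890201-14920600 (30.4 kb) and chr11:40256001-40286000 (30.0 kb). The first had 1411 over 540 and 1130 over 568 reads, 1.79 and 2.09 times the list medians and at the 94.1 and 94.7 percentiles. It adjoined an ISC island. The second had 1000 over 394 and 865 over 488 reads, 1.74 and 1.86 times the list medians, and lay 96.2 kb from any ISC island. Only E12.5 replicate 2 called them at the earlier age, over 75.7% and 91.3%. The remaining long losses, 36.0 kb (chr11:116974801-117010800) and 32.0 kb (chr7:131179401-131211400), had ratios of 0.940 and 1.25, and 1.32 and 1.76 times the list medians. None of the 8 losses touched an AE island.

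**Figure D4:**
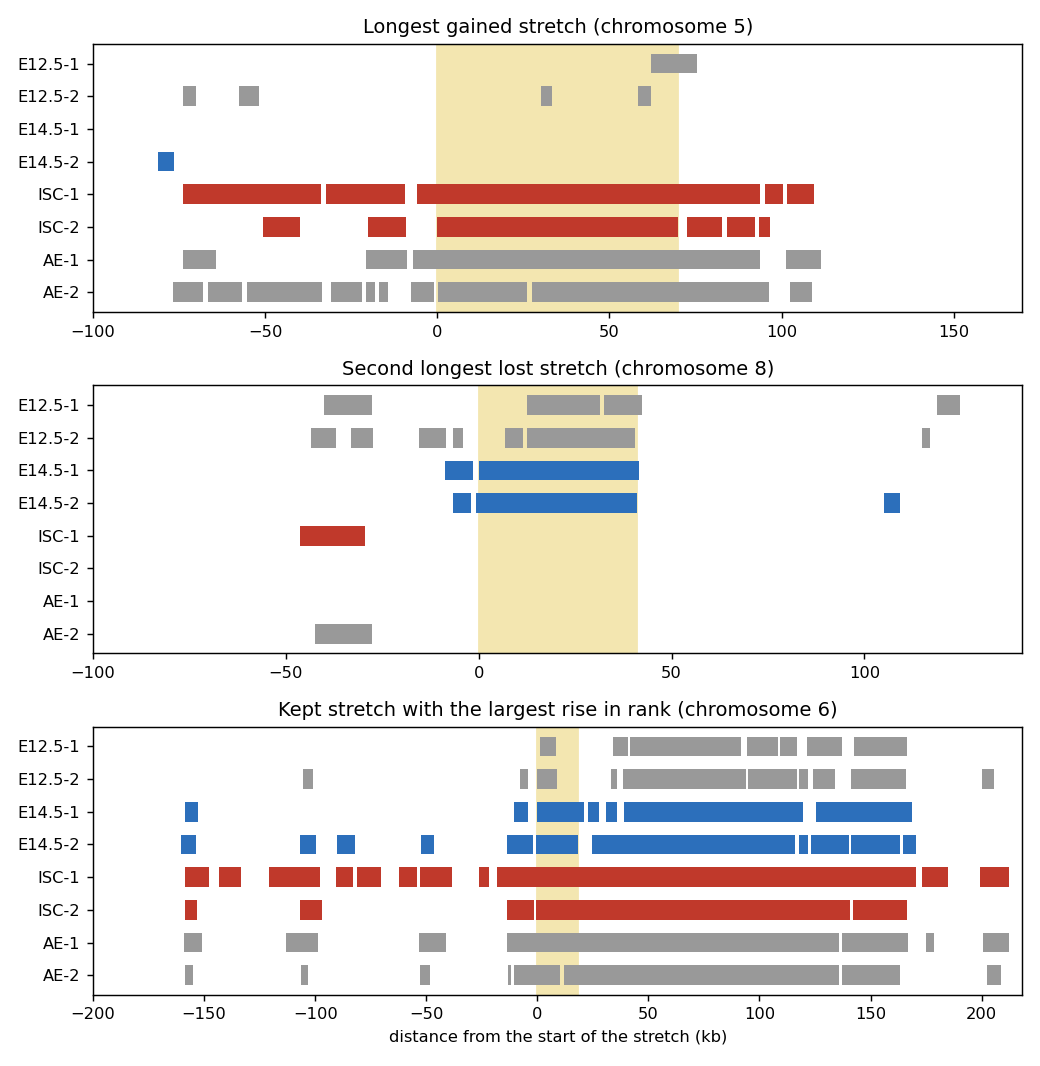
Islands (bars) in all 8 libraries around the longest gained stretch, the second longest lost stretch and the kept stretch with the largest rise in rank, against the distance from the start of the stretch (kb); the stretch is shaded, E14.5 is blue, ISC red, and E12.5 and AE grey. The gained stretch is free of E14.5 islands, the lost stretch free of ISC and AE islands, and on chromosome 6 the ISC islands run from the shaded stretch on into the neighbouring domain.

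Changes lay both near to and far from islands of the other age. Of the gained length, 41.0% was in stretches within 10 kb of an E14.5 island of either replicate, including 22.9% that adjoined one. Stretches over 50 kb from any E14.5 island held 34.1%. Of the lost length, 43.9% lay within 10 kb of an ISC island, including 28.3% that adjoined one, and 37.1% lay over 50 kb from any. At equal covered length the shares within 10 kb were 41.9% of the gain and 37.2% of the loss. The distant shares were then 37.4% and 45.8%, and the adjoining shares 25.99% and 26.11%. These shares were not set against those of all called stretches. Adjoining stretches were short, with medians of 1.6 kb for gains and 1.2 kb for losses as deposited, against 5.8 and 4.6 kb for the distant ones. All these values count islands of either replicate, and so include the long ISC replicate 1 list. Counting only windows called in both replicates of the other age, as deposited, 24.2% of the gain and 14.9% of the loss lay within 10 kb. Over 50 kb away lay 52.6% of the gain and 68.9% of the loss.

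Changes were spread over the genome with a few local clusters. At equal covered length 783 bins of 1 Mb held some gain and 1243 some loss, and 493 held both. The densest gain was on chromosome 11 between 96000001 and 97000000, with 152 kb in 23 stretches beside 261 kb kept. In that bin the E14.5 lists as deposited covered 432 and 519 kb and the ISC lists 765 and 500 kb, so ISC replicate 2 did not exceed E14.5 replicate 2 in total, and 97.0 kb were gained as deposited. The next were chr8:12000001-13000000 with 107 kb and chr5:125000001-126000000 with 101 kb. In the chromosome 5 bin E14.5 covered 7.8 and 26.8 kb and ISC 367 and 122 kb.

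The densest loss was on chromosome 8 between 112000001 and 113000000, with 119 kb in 7 stretches and nothing kept or gained at equal length. There E14.5 covered 217 and 298 kb, ISC replicate 2 22.8 kb and AE 29.6 and 35.6 kb, while ISC replicate 1 covered 321 kb. The loss was 119 kb as deposited too, so the islands of ISC replicate 1 in this bin lay beside the lost stretches. The loss bins on chr15:78000001-79000000 and chr17:8000001-9000000 held 108 and 96.8 kb at equal length, but only 25.2 and 49.4 kb as deposited.

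Chromosome X stood apart from the autosomes. The E14.5 lists had 324 and 363 islands there, covering 2.24 and 3.16 Mb, against 46 and 26 islands and 0.325 and 0.183 Mb in ISC, although ISC replicate 1 had the longest list of all. The groups did not overlap. Outside the comparison the embryonic replicates differed: E12.5 replicate 1 had 35 X islands over 0.270 Mb, between the ISC lists, and replicate 2 had 215 over 1.06 Mb. The AE lists had 45 and 59 X islands over 0.228 and 0.246 Mb. As deposited, 20.8% of the X length called in any of the 4 libraries was lost, against 4.14% over all chromosomes, and 0.0938% was gained, against 5.97%. At equal covered length 19.6% of it was lost, against 10.4% over all chromosomes, and 0% was gained, against 7.04%. On the autosomes the lost share ran from 3.02% (chromosome 6) to 6.89% (chromosome 17) as deposited, and reached 14.0% (chromosome 17) at equal length. The lost X length came to 0.886 Mb in 209 stretches with a median of 4.0 kb. E12.5 replicate 2 called 33.3% of it, E12.5 replicate 1 1.92%, and the AE libraries 1.22% and 3.55%.

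The control reads inside islands also differed on X. Their median density relative to the autosomal islands of the same list was 0.712 in both E14.5 lists and 0.526 in ISC replicate 1. In ISC replicate 2 it was 3.17 over its 26 X islands, so these lay where the control itself was dense. Outside the comparison this relative density was 1.23 and 0.760 in the E12.5 lists and 0.980 and 0.717 in the AE lists. AE replicate 2, from males, thus lay near the E14.5 lists. What sets these values was not tested. The adult cells came from males and the sex of the embryos is not given, so age and sex cannot be told apart on this chromosome. On the autosomes alone the gain was 18.0 Mb and the loss 11.6 Mb. ISC replicate 1 also had no island on chromosome Y, where the other 3 lists had 14 or 15.

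**Figure D5:**
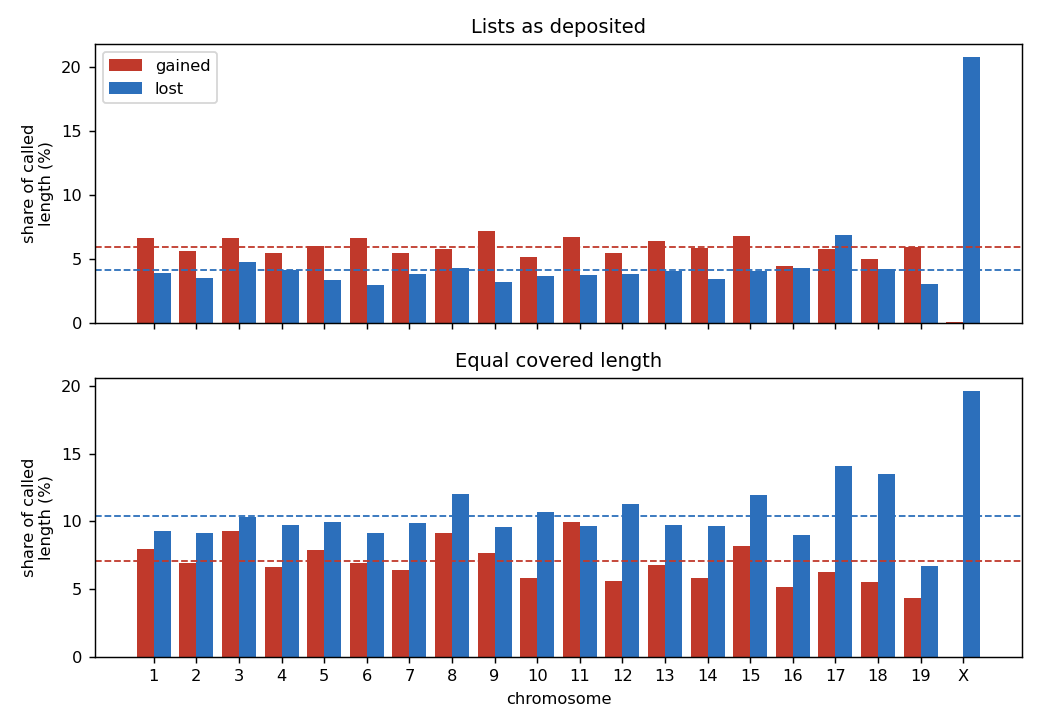
Share of the length called in any of the 4 libraries that was gained or lost on each chromosome (%, vertical axis), for the lists as deposited (top) and at equal covered length (bottom); dashed lines give the share over all chromosomes in the same colour. Chromosome X has the highest lost share in both, 20.8% and 19.6%, and almost no gain.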

How the data were processed

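H3K27me3 was measured by ChIP-seq. SICER 1.1, SAMtools 1.2, Bowtie 1.1.2 and bcl2fastq 1.8.4, with the mm9 build, are named in the submitters' processing notes. The deposited lists have no header, and only their first 5 columns were used. The deposited ChIP and control counts are whole reads per island, not normalized, with islands called per library. In intervals that replicates share exactly (52 at E14.5, 17 in ISC) all control counts were identical, so replicates share a control. The ChIP counts matched in 1 E14.5 interval and 0 ISC intervals.

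Lists were painted on 200 bp windows with Python 3.11.15, numpy 2.4.6 and scipy 1.17.1. Lists were cut island by island in falling order of ChIP over control reads. Classes and cuts were checked on simulated islands. Named regions are the 8 longest stretches per class held both as deposited and at equal length, and the 3 bins of 1 Mb with most gain or loss. Members, lists and rules were chosen with earlier results of these data known. No mm9 genome or annotation was used, so promoters, gene lists and sequences were not analysed here. The duplicates are biological per the series design.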

Additional observations from a re-analysis of the deposited data

How the results depend on the processing

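No paired analysis was possible because the lengths gained, lost and kept come from no test and the labels tie no E14.5 library to an ISC library. Against 18.0 Mb gained, 12.48 Mb lost, 24.5 Mb kept and a loss minus gain of -5.51 Mb as deposited, 23 alternative settings were tried. Loss exceeded gain in 13 and gain exceeded loss in 10. These counts do not weigh the direction, because many settings are close variants of each other. Those that leave out 1 library also compare 1 library with 2. Gain and loss minus gain were 9.26 and 4.40 Mb at equal covered length, and 7.86 and 5.35 Mb when that cut used ChIP reads per kb. With only ISC replicate 1 cut to the length of replicate 2, gain was 7.06, loss 23.8 and the difference 16.7 Mb. With islands at or above the median ratio of their list, gain was 8.09, loss 7.81, kept 14.6 and the difference -0.276 Mb. At 30.4 Mb, 50% of the shortest list, gain was 4.11, loss 6.86, kept 9.90 and the difference 2.75 Mb. The share of gain on chromosome X was 0% at equal length and with the median ratio. A margin of 1 kb, stretches of 2 kb or more, leaving out islands of high control density, and autosomes only moved none of the 4 lengths by over 1.5 times.

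Settings added after seeing the data cut only ISC replicate 1, or all lists. With ISC replicate 1 at 100 Mb, gain was 11.1, loss 19.6 and the difference 8.51 Mb, and at 150 and 200 Mb the difference was 1.44 and -3.24 Mb. With all lists at 20 Mb, gain was 2.40, loss 4.13, kept 7.07 and the difference 1.74 Mb. At 40 Mb gain was 5.58, kept 12.7 and the difference 3.30 Mb, and at 50 Mb they were 7.26, 15.4 and 4.10 Mb.

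Leaving out 1 library of the lists as deposited gave gains of 19.5 to 165 Mb, losses of 13.5 to 37.9 Mb, kept lengths of 25.5 to 43.6 Mb and differences of -151 to 18.4 Mb. As presence and absence then rest on fewer libraries, no class can shrink. The gain of 165 Mb is that without ISC replicate 2, and the loss of 37.9 Mb that without E14.5 replicate 1. Loss was 31.6 Mb and gain 26.6 Mb (difference 4.98 Mb) without ISC replicate 1, and 23.7 and 23.9 Mb (difference -0.17 Mb) without E14.5 replicate 2. At equal covered length, gain, loss and difference were 10.6, 26.2 and 15.6 Mb when E14.5 replicate 1 was left out. With E14.5 replicate 2 left out they were 11.4, 28.2 and 16.9 Mb. They were 32.9, 20.1 and -12.8 Mb without ISC replicate 1, and 28.0, 17.2 and -10.8 Mb without replicate 2. At equal length the larger class was thus each time that of the age left with 1 library. There a call in 1 library was enough for that age, and calls in 2 were needed for the other. These signs therefore do not bear on the direction. The shares called in E12.5 and AE, the share of lost length on chromosome X and the adjoining shares moved by less than 1.5 times at equal length and with the median ratio. Total depth is unknown, so it cannot be said how far a missing call reflects few reads.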
